A study of Mus musculus with 3 samples.

Results

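Proteins of the BCL2 family set whether mitochondria release cytochrome c, the step that starts the caspase cascade of intrinsic apoptosis. Anti-apoptotic members restrain the pore-forming effectors BAX and BAK1, while BH3-only members bind the anti-apoptotic members or engage the effectors directly. In bone marrow the family is known for lineage-specific needs: neutrophil precursors and stem cells depend on MCL1, late erythroid cells on BCL-XL, and lymphocytes on BCL2 with BIM as its brake. Described here are 10 of the 56980 genes in the count matrices, chosen by symbol for their place in this family. They comprise the anti-apoptotic genes Bcl2 (ENSMUSG00000057329), Bcl2l1 (ENSMUSG00000007659), Mcl1 (ENSMUSG00000038612) and Bcl2a1b (ENSMUSG00000089929), and the effector Bak1 (ENSMUSG00000057789). The BH3-only genes are Bcl2l11 (ENSMUSG00000027381), Bid (ENSMUSG00000004446), Bad (ENSMUSG00000024959), Bmf (ENSMUSG00000040093) and Pmaip1 (ENSMUSG00000024521).

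Bone marrow nucleated cells (BMNCs) of wildtype C57BL/6 male mice, whose age was not given, were profiled by droplet single-cell RNA sequencing at 14 days post irradiation (14 DPI). Femoral Lin−Kit+, Lin−Kit− and Lin+ cells of 3 mice were pooled and mixed 5:4:1 into 1 library per condition, so the mix of cells in a library was set partly by the sort. Control mice were labelled only as control. IR mice received 6.0 Gy of cobalt-60 gamma rays and the solvent, soybean oil with 2% DMSO. IR+CBD mice received the same dose and cannabidiol (CBD) at 50 mg/kg in that solvent, in 4 intraperitoneal injections at 12 h and 0.5 h before and 12 h and 24 h after irradiation. Cells with at least 200 genes and at most 5% mitochondrial UMIs were kept, which left 10674 of 12200 Control barcodes, 10345 of 11951 IR barcodes and 10273 of 11884 IR+CBD barcodes. Summed UMIs of kept cells were 194839224 for Control, 202361682 for IR and 173466089 for IR+CBD, with medians of 12479.5, 14211 and 12502 per cell. Control and IR shared 35 barcodes, Control and IR+CBD 41, IR and IR+CBD 51, and 0 were found in all 3 libraries. With 1 library per condition there was no replicate check between conditions, and the intervals given below cover counting error only, since cells of 1 library are not replicates.

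Cells were gated by raw UMIs: Mpo at 5 or more, Klf1 at 2 or more, Cd79a at 2 or more, Retnlg at 5 or more, Siglech at 3 or more, and Cd34 with Adgrl4 at 1 or more each. The Mpo gate held 3227, 2916 and 3294 cells in Control, IR and IR+CBD. The Klf1 gate held 586, 1446 and 1181 cells in the same order. The Cd79a gate held 3524, 4072 and 3456 cells. Erythroid-type Klf1 cells were thus more numerous in both irradiated libraries than in Control, and they carried 12.5%, 31.3% and 27.8% of the kept UMIs. The Retnlg gate held 1004, 1076 and 1215 cells. The Siglech gate held 273, 46 and 79 cells, the smallest gate in each library. The Cd34 Adgrl4 gate held 3116, 1952 and 1970 cells, of which 69.0%, 87.4% and 83.4% also passed the Mpo gate.

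Each gate was checked against markers that had not defined it. All 6 B-lineage markers were highest in the Cd79a gate in each library, as were 6 of 6 mature neutrophil markers in the Retnlg gate and 6 of 6 plasmacytoid dendritic cell markers in the Siglech gate. In the Mpo gate 5 of 6 myeloid progenitor markers were highest in each library, with Cebpe highest in the Retnlg gate. In the Klf1 gate 6 of 6 erythroid markers were highest in IR and IR+CBD and 5 of 6 in Control, where Tfrc was highest in the Siglech gate. Among cells in 1 gate only, it was 5 of 6 in each library, again with Tfrc highest in the Siglech gate. The Cd34 Adgrl4 gate led in 4 of 7 stem and multipotent progenitor markers, with Kit highest in the Klf1 gate and Flt3 and Ly6a in the Siglech gate, so it is called by its genes alone. Among cells in 1 gate only, which the test below used, it led in 6, 5 and 5 of 7 in Control, IR and IR+CBD. Levels below are counts per 1000000 (CPM) of UMIs summed over the cells of a gate and library, with exact Poisson 95% intervals in the plot of CPM by gate.

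**Figure D1:**
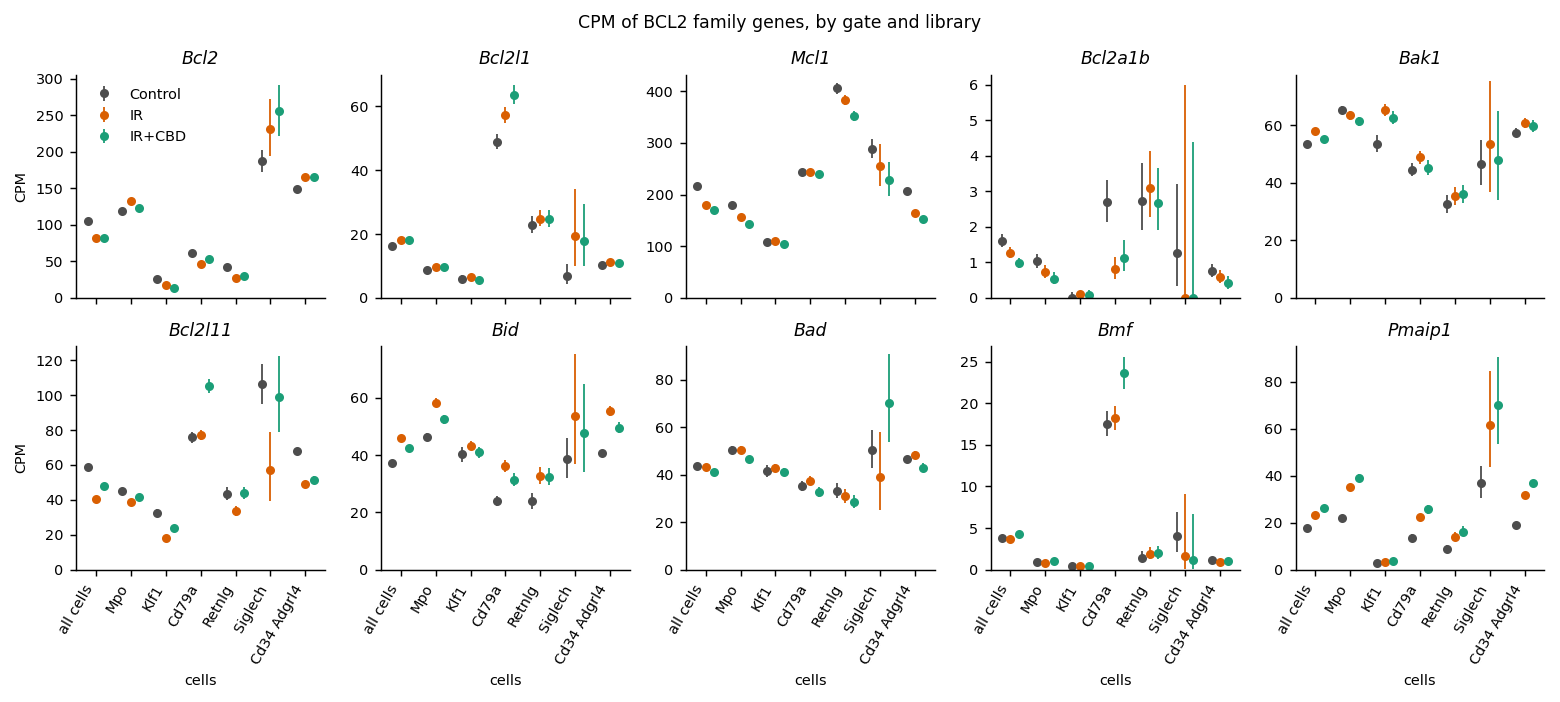
CPM of the 10 genes (vertical axes from 0, a scale per gene) in all kept cells and in 6 gates (horizontal axes), with 1 point per library and exact Poisson 95% intervals as bars. Bcl2l1 and Bmf stand out in the Cd79a gate, Mcl1 in the Retnlg gate and Bcl2 in the Siglech and Cd34 Adgrl4 gates, and the bars are widest in the Siglech gate, which held 46 cells in IR.

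Gates were compared by an edgeR quasi-likelihood test over 18 sums, 6 gates by 3 libraries, of cells in exactly 1 gate, with the library as a block and each gate set against the mean of the other 5. This left out 70.9%, 63.6% and 57.0% of the Mpo gate in Control, IR and IR+CBD, which kept 938, 1062 and 1415 cells. The Cd34 Adgrl4 gate lost 72.3%, 89.2% and 85.9% and kept 863, 211 and 277. For both, the folds thus describe a minority of the cells behind the CPM. The Siglech gate kept 229, 36 and 65 cells. The libraries are of 3 conditions, so their spread holds treatment and library together. All 10 genes were among the 17290 that passed the low-count filter. Composition scaling by the trimmed mean of M values (TMM) gave factors of 0.484 to 0.503 in the Retnlg gate and 0.983 to 1.36 elsewhere. Without these factors the median log2 fold of all genes moved by −1.19 in the Retnlg gate, 0.47 in the Siglech gate, 0.43 in the Cd34 Adgrl4 gate, 0.28 in the Cd79a gate, 0.04 in the Klf1 gate and −0.02 in the Mpo gate. The test passed at an adjusted p under 0.05 for 10 of the 10 genes in the Mpo gate, where 63.0% of all tested genes passed, 6 of the 10 being higher there and 4 lower. In the Klf1 gate 9 passed, 2 higher and 7 lower, beside 73.5% of all genes. In the Cd79a gate 9 passed, 5 higher and 4 lower, beside 62.8%. The Retnlg gate gave 8, with 7 higher and 1 lower, beside 71.5%, and of the 7 higher Bcl2l11, Bid, Bad and Pmaip1 turned lower without TMM factors. The Siglech gate gave 3, with 2 higher and 1 lower, beside 37.0%, and the Cd34 Adgrl4 gate gave 8, with 2 higher and 6 lower, beside 53.6%. Each of those 6 turned higher under some setting, Bcl2l1 and Mcl1 without TMM factors and Bak1, Bid, Bad and Pmaip1 with all cells of each gate. Among the higher calls of the Cd79a gate Pmaip1 turned lower with all cells of each gate.

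Bcl2, whose protein sequesters BH3-only proteins at the outer mitochondrial membrane, was highest by CPM in the Siglech gate, at 187, 231 and 255 for Control, IR and IR+CBD. In the Cd34 Adgrl4 gate it stood at 149, 165 and 166, and in the Mpo gate at 119, 132 and 123. The ranges of these gates did not overlap, and those of the remaining gates lay lower still. Bcl2 measured 61.7, 46.1 and 52.6 CPM in the Cd79a gate, 41.9, 26.9 and 29.5 in the Retnlg gate and 25.6, 17.1 and 13.7 in the Klf1 gate. Cells of the Retnlg gate that passed no other gate held 12.1, 10.3 and 7.50, from 96, 95 and 68 of the 551, 399 and 431 UMIs of the whole gate, so most Bcl2 UMIs of that gate lay in cells that passed another gate as well. In the test Bcl2 was higher in the Siglech gate (log2 fold 2.15, SE 0.199, adjusted p = 1.48e-08, 3 of 3 libraries). It was higher in the Cd34 Adgrl4 gate as well (log2 fold 2.11, SE 0.132, adjusted p = 1.99e-11, 3 of 3 libraries). By contrast, Bcl2 was lower in the Klf1 gate (log2 fold −2.78, SE 0.178, adjusted p = 4.43e-12, 3 of 3 libraries). Smaller folds that passed were 0.91 in the Mpo gate, −1.03 in the Cd79a gate and −1.37 in the Retnlg gate, each in 3 of 3 libraries. Among cells of 1 gate only the Siglech and Cd34 Adgrl4 gates overlapped with and without TMM scaling, the Cd79a and Retnlg gates with it alone, and the Retnlg and Klf1 gates without it alone. Within the Mpo gate, cells with Cd34 held 138, 153 and 153 CPM of Bcl2 and cells without Cd34 held 41.5, 47.6 and 48.4, so the cells with Cd34 were higher in each library.

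Bcl2l1, which encodes BCL-XL, was highest in the Cd79a gate, at 49.0, 57.3 and 63.7 CPM in Control, IR and IR+CBD. The Retnlg gate followed at 22.9, 24.9 and 24.7. Klf1 cells held 5.99, 6.58 and 5.46 CPM, the lowest median of the 6 gates. By CPM the Cd79a gate lay above every other gate without overlap, though after TMM scaling of cells in 1 gate only it ran from 55.7 to 75.2 and overlapped the Retnlg gate at 42.2 to 60.6, while the Siglech gate, at 6.91, 19.5 and 17.9, overlapped the Cd34 Adgrl4 gate at 10.2, 11.1 and 11.02. Bcl2l1 was higher in the Cd79a gate by a log2 fold of 2.75 (SE 0.0783, adjusted p = 7.17e-18, 3 of 3 libraries) and in the Retnlg gate by 2.30 (SE 0.101, adjusted p = 5.4e-15, 3 of 3 libraries). Klf1 cells were lower in Bcl2l1 (log2 fold −1.78, SE 0.151, adjusted p = 5.72e-10, 3 of 3 libraries), as were cells of the Mpo gate (−1.03) and cells that passed the Siglech gate alone (−1.93). The Siglech call rests on 8, 5 and 2 UMIs in Control, IR and IR+CBD, and by CPM over all its cells that gate lay above the Klf1 gate in each library. In the Cd34 Adgrl4 gate Bcl2l1 was lower by a log2 fold of −0.31 (SE 0.129, adjusted p = 0.0471, 3 of 3 libraries), but the fold was 0.13 without TMM factors. That call was lost without Control (−0.44), without IR (−0.28) and without IR+CBD (−0.28). It was also lost by DESeq2 (−0.31), without the filter (−0.29) and with a mitochondrial limit of 10% (−0.31).

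Mcl1 encodes a short-lived anti-apoptotic protein that neutrophils need for survival. It was highest in the Retnlg gate, at 406, 384 and 352 CPM in Control, IR and IR+CBD. The Siglech gate held 289, 255 and 229, and the Cd79a gate 244, 243 and 241, so these overlapped each other but not the Retnlg gate. The Cd34 Adgrl4 gate at 207, 164 and 152 overlapped the Mpo gate at 179, 157 and 144, and the Klf1 gate was lowest at 109, 110 and 104. Mcl1 was higher in the Retnlg gate by a log2 fold of 2.45 (SE 0.0671, adjusted p = 9.14e-19, 3 of 3 libraries). Levels were lower in the Klf1 gate (log2 fold −1.46, SE 0.0849, adjusted p = 8.74e-13, 3 of 3 libraries) and in the Mpo gate (log2 fold −0.67, SE 0.0800, adjusted p = 2.33e-07, 3 of 3 libraries). The fold of −0.24 in the Cd34 Adgrl4 gate (SE 0.0797, adjusted p = 0.0151, 2 of 3 libraries) was 0.19 without TMM factors, and its call was lost without IR (−0.16) and without IR+CBD (−0.19). Mcl1 in the Cd79a gate did not pass the test, at a fold of 0.07 that was −0.02 by DESeq2, and it passed without Control, at 0.19, and without TMM factors, at 0.35. Nor did it pass in the Siglech gate, at −0.16, which turned to 0.32 and passed without TMM factors, lay just above 0 with all cells of each gate, and passed without Control at −0.28.

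Bcl2a1b encodes an A1 protein, an anti-apoptotic member known from neutrophils and lymphocytes, and was sparse. All cells held 1.60, 1.26 and 0.969 CPM in Control, IR and IR+CBD, from 312, 255 and 168 UMIs. The Retnlg gate held 2.73, 3.10 and 2.67 CPM. The Cd79a gate held 2.69, 0.806 and 1.12. By CPM the Control cells of the Cd79a gate were within the range of the Retnlg gate and the irradiated libraries below it, but after TMM scaling of cells in 1 gate only all 3 libraries of the Cd79a gate, at up to 2.98, lay below the Retnlg gate at 6.15 to 7.57. In the Klf1 gate 0 UMIs were counted in Control, which allows up to 0.123 CPM at 3 counts, beside 0.0946 CPM in IR and 0.0831 in IR+CBD. Bcl2a1b was higher in the Retnlg gate (log2 fold 3.96, SE 0.315, adjusted p = 1.77e-10, 3 of 3 libraries). It was higher in the Cd79a gate too (log2 fold 1.22, SE 0.306, adjusted p = 0.00162, 3 of 3 libraries), a call that was lost without Control (1.80). Calls in the Klf1 gate, which rest on 0, 2 and 1 UMIs, and in the Mpo gate, at 0.77, were also lost without Control (−3.45 and 1.95). The Mpo call was likewise lost without IR (0.83), without IR+CBD (0.81) and by DESeq2 (0.68). With all cells of each gate it was lost too, and the fold fell to 0.14.

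The mouse Bcl2a1 genes are copies of one another, and how reads that match several copies were counted was not stated. Of the 91-base windows in the final 500 bases of the Bcl2a1b transcript, 38.8% occurred unchanged in Bcl2a1d, 13.4% in Bcl2a1a and 0 in Bcl2a1c. Summed over Bcl2a1a, Bcl2a1b and Bcl2a1d, all cells held 2.28, 2.01 and 1.61 CPM. Bcl2a1b gave 70.3%, 62.8% and 60.2% of these UMIs in Control, IR and IR+CBD, but 64.6% of the windows of Bcl2a1d occurred in another copy, beside 38.8% for Bcl2a1b, so these shares may depend on how shared reads were counted.

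Bak1 encodes an effector that oligomerises into pores. It measured 65.2, 63.4 and 61.3 CPM in the Mpo gate, 53.4, 65.2 and 62.5 in the Klf1 gate and 57.3, 60.7 and 59.6 in the Cd34 Adgrl4 gate. The Klf1 gate overlapped both of the others, and the Mpo gate lay above the Cd34 Adgrl4 gate without overlap. The Retnlg gate was lowest at 32.6, 35.3 and 36.1. Bak1 was higher in the Mpo gate (log2 fold 0.83, SE 0.0817, adjusted p = 1.09e-08, 3 of 3 libraries) and in the Klf1 gate (log2 fold 0.57, SE 0.0832, adjusted p = 2.72e-06, 3 of 3 libraries). B-lineage cells of the Cd79a gate were lower (log2 fold −0.54, SE 0.0919, adjusted p = 2.73e-05, 3 of 3 libraries). In the Cd34 Adgrl4 gate the fold was −0.62 (SE 0.103, adjusted p = 3e-05, 3 of 3 libraries), which did not pass without TMM factors and turned to 0.15 when all cells of each gate were summed. Bak1 did not pass in the Retnlg gate, where the fold of 0.18 became −1.03 without TMM factors and passed in that direction, and passed at 0.47 by DESeq2. Nor did it pass in the Siglech gate, where −0.42 became 0.05 without TMM factors but passed without the filter (−0.44) and with all cells of each gate (−0.46).

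Bax, the partner of BAK1 in pore formation, held 135, 158 and 143 CPM over all cells. In the gate test Bax was higher in the Klf1 gate at a log2 fold of 1.04 and in the Mpo gate at 0.96, and lower in the Retnlg gate at −1.74. With all cells of each gate these folds were 0.67, 0.37 and −0.61. A lower call in the Cd34 Adgrl4 gate, at −0.36, turned to 0.07 without TMM factors and to 0.15 with all cells of each gate. Bok, a more distant effector, held 12.1, 8.75 and 6.51 CPM in the Cd79a gate and 0.575, 0.331 and 0.291 in the Klf1 gate, so the B-lineage gate was the higher of these in each library. In the gate test Bok was higher in the Cd79a gate, at a log2 fold of 5.59, and also in the Cd34 Adgrl4 gate, at 4.13. With all cells of each gate these folds were 3.005 and 1.12.

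Bcl2l11 encodes BIM, a BH3-only protein that binds every anti-apoptotic member and sets lymphocyte numbers. In the Cd79a gate it measured 75.8, 77.2 and 105 CPM, and in the Siglech gate 106, 56.8 and 98.95, which overlapped. The Klf1 gate was lowest at 32.3, 18.04 and 23.9. Bcl2l11 was higher in the Cd79a gate (log2 fold 0.87, SE 0.134, adjusted p = 7.19e-06, 3 of 3 libraries). Lower levels were found in the Klf1 gate (log2 fold −1.64, SE 0.158, adjusted p = 4.4e-09, 3 of 3 libraries) and in the Mpo gate (log2 fold −1.08, SE 0.153, adjusted p = 2.21e-06, 3 of 3 libraries). It was higher in the Cd34 Adgrl4 gate by 0.83 (SE 0.142, adjusted p = 3.89e-05, 3 of 3 libraries), which did not pass, at 0.055, when all cells of each gate were summed. The fold of 0.45 in the Retnlg gate (SE 0.162, adjusted p = 0.0162, 3 of 3 libraries) was −0.76 without TMM factors, and its call was lost without IR+CBD (0.37). In the Siglech gate a fold of 0.57 did not pass, but it passed by DESeq2 (0.61), without the filter (0.55), without TMM factors (1.04), with all cells of each gate (0.60) and without IR (0.62).

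Bid, which links death receptors to mitochondria after cleavage by caspase 8, was highest by median in the Mpo gate at 46.4, 58.2 and 52.5 CPM. The Cd34 Adgrl4 gate, at 40.55 to 55.2, and the Siglech gate, at 38.65 to 53.6, overlapped the Mpo gate. The Cd79a gate held 24.01, 36.2 and 31.4, below the Mpo gate without overlap. Bid was higher in the Mpo gate (log2 fold 0.96, SE 0.0815, adjusted p = 1.08e-09, 3 of 3 libraries) and lower in the Cd79a gate (log2 fold −1.03, SE 0.0974, adjusted p = 6.55e-09, 3 of 3 libraries). It was higher in the Retnlg gate by 0.54 (SE 0.106, adjusted p = 0.000105, 3 of 3 libraries), a fold that was −0.67 without TMM factors. It was lower in the Cd34 Adgrl4 gate by a log2 fold of −0.94 (SE 0.110, adjusted p = 2.7e-07, 3 of 3 libraries), which was 0.20 with all cells of each gate. A fold of 0.39 in the Klf1 gate passed too, but not with all cells of each gate, at 0.09. Bad, a BH3-only protein held inactive by phosphorylation under growth factor signalling, was highest by median in the Mpo gate as well, but barely. The Siglech gate had a median of 50.3 CPM beside 50.5 in the Mpo gate, and its range of 38.97 to 70.3 overlapped the Mpo gate. Bad measured 50.6, 50.5 and 46.4 CPM in the Mpo gate and 35.3, 37.5 and 32.6 in the Cd79a gate, with the Retnlg gate lowest by median at 33.3, 30.9 and 28.6. Bad was higher in the Mpo gate (log2 fold 0.58, SE 0.0721, adjusted p = 3.55e-07, 3 of 3 libraries) and lower in the Cd79a gate (log2 fold −0.76, SE 0.0814, adjusted p = 4.72e-08, 3 of 3 libraries). Its fold in the Retnlg gate was 0.42 (SE 0.0909, adjusted p = 0.000269, 3 of 3 libraries) and −0.79 without TMM factors. In the Cd34 Adgrl4 gate the fold of −0.65 turned to 0.05 with all cells of each gate, and Bad did not pass in the Klf1 gate or, at 0.32, in the Siglech gate, where it passed by DESeq2 (0.40) and without TMM factors (0.80).

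Bmf, a BH3-only gene whose protein is tethered to the cytoskeleton until released, was concentrated in the Cd79a gate at 17.6, 18.2 and 23.6 CPM. The Retnlg gate came next by median at 1.44, 1.89 and 1.99, and the Siglech gate held 4.09, 1.62 and 1.19. The Cd79a gate lay far above the rest in each library, and the Klf1 gate, at 0.411, 0.379 and 0.457, lay below. Bmf was higher in the Cd79a gate by a log2 fold of 4.80 (SE 0.160, adjusted p = 1.23e-16, 3 of 3 libraries) and lower in the Klf1 gate (log2 fold −4.03, SE 0.367, adjusted p = 1.72e-09, 3 of 3 libraries). It was lower in the Mpo gate (log2 fold −1.60, SE 0.298, adjusted p = 7.29e-05, 3 of 3 libraries), a call lost without Control (−0.98). Both lower calls rest on few UMIs, namely 4, 7 and 4 in the Klf1 gate and 17, 12 and 21 in the Mpo gate for Control, IR and IR+CBD.

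Pmaip1 encodes NOXA, a BH3-only protein that binds MCL1 and is a p53 target. It was highest in the Siglech gate at 36.8, 61.7 and 70.3 CPM, followed by the Mpo gate at 21.9, 35.2 and 39.2, and lowest in the Klf1 gate at 2.996, 3.27 and 3.51. Neighbouring gates overlapped in this order except for the Klf1 gate, which lay below the Retnlg gate at 8.66, 13.9 and 16.2. Pmaip1 was higher in the Siglech gate (log2 fold 2.31, SE 0.178, adjusted p = 7.74e-10, 3 of 3 libraries) and in the Mpo gate (log2 fold 1.70, SE 0.0870, adjusted p = 3.56e-13, 3 of 3 libraries). It was lower in the Klf1 gate by a log2 fold of −4.19 (SE 0.144, adjusted p = 1.2e-16, 3 of 3 libraries). The fold of −1.03 in the Cd34 Adgrl4 gate (SE 0.138, adjusted p = 1.86e-06, 3 of 3 libraries) was 0.65 with all cells of each gate, and that of 0.79 in the Retnlg gate was −0.43 without TMM factors and did not pass with all cells of each gate, at 0.07. In the Cd79a gate the fold of 0.43 (SE 0.0981, adjusted p = 0.00064, 2 of 3 libraries) turned to −0.09 with all cells of each gate and was lost without IR+CBD (0.31).

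**Figure D2:**
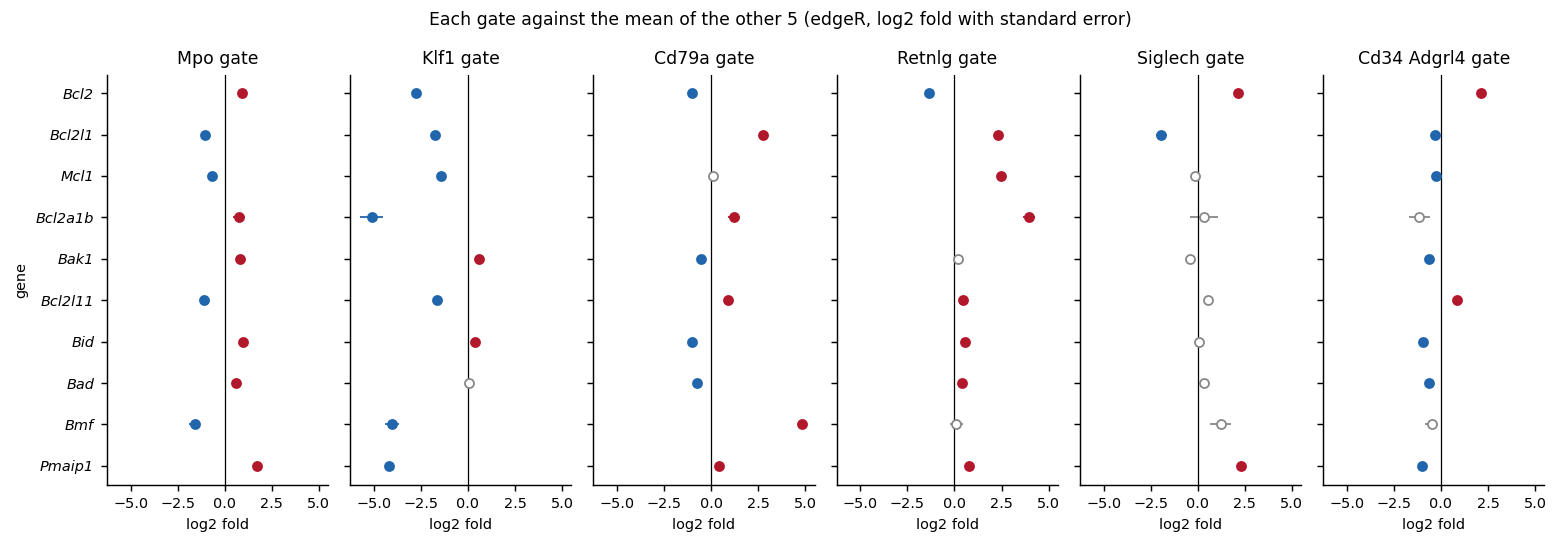
Log2 fold of each gene (rows) in each gate against the mean of the other 5 (panels), with standard errors as bars, where filled points passed at an adjusted p under 0.05 (red higher, blue lower) and open points did not. Bmf and Bcl2l1 lie farthest right in the Cd79a gate, while the positive points of Bak1, Bcl2l11, Bid, Bad, Bmf and Pmaip1 in the Retnlg gate turn negative without TMM factors, the blue points of the Cd34 Adgrl4 gate turn positive without TMM factors or with all cells of each gate, and further points turn as the text states.

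Promoters were read because Bcl2l1 and Bmf were both highest by CPM in the Cd79a gate and because the Bcl2a1 copies share sequence. RefSeq sequences of 300 bases, 250 before to 50 after the start, on GRCm38.p6, were found for 9 of the 10 genes. Where a gene had several starts in the table, 3 for Bcl2l1 and Bmf and 2 for Bcl2l11 and Bad, the most upstream window alone was read. Motifs were searched on both strands by the letters given, so other forms of a site, such as the ETS core GGAA in ccggaagt of the Bcl2l1 sequence, were not counted. The GC box (GGGCGG) was in 7 of the 9, namely Bcl2, Mcl1, Bcl2a1b, Bcl2l11, Bid, Bad and Bmf, beside 35.7% of all 32851 promoters. This share and those that follow count every start of a gene, not the most upstream alone. A purine-rich ETS motif (GAGGAA) was in 4, namely Bcl2, Bcl2a1b, Bak1 and Bid, beside 28.3%. The FOXO motif (GTAAACA) was in Bcl2l11 alone, beside 3.65%. No match was found among the 9 to the E-box (CACGTG, 7.15%), the GATA motif (AGATAA, 11.2%), the STAT motif (TTCNNNGAA, 8.30%) or the TATA box (TATAAA, 13.6%). In the sequences shown capitals mark these matches, and no base lies in more than 1 motif. Of the 281 windows of 20 bases in the Bcl2a1b promoter, 70.1% occurred in that of Bcl2a1a, 58.0% in that of Bcl2a1d and 37.4% in that of Bcl2a1c. Bcl2a1b and Bcl2a1d are shown from chr9:89199023-89199322 on the plus strand and chr9:88731801-88732100 on the minus strand. Bcl2l1 (chr2:152831679-152831978, minus strand) held no match to these letters in that window and Bmf (chr2:118549637-118549936, minus strand) 1 GC box. Bcl2l11 (chr2:128125788-128126087, plus strand) is shown for its 3 GC boxes and its FOXO match.
Bcl2a1b: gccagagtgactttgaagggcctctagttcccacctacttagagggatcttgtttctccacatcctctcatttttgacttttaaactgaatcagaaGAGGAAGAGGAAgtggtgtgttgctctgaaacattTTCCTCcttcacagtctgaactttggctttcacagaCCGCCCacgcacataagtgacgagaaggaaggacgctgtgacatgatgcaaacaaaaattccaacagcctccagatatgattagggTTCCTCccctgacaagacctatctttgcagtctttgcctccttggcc
Bcl2a1d: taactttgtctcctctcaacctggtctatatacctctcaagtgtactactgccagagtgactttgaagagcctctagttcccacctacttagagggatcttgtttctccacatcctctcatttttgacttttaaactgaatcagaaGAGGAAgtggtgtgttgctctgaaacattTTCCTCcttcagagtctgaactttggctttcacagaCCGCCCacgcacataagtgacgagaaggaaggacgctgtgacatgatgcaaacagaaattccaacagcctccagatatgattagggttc
Bcl2l1: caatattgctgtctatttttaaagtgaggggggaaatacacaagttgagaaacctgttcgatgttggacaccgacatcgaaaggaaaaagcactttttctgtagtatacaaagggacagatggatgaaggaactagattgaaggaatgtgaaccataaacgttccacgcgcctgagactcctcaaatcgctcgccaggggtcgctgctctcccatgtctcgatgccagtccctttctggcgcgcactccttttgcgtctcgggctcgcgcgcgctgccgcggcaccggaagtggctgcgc
Bmf: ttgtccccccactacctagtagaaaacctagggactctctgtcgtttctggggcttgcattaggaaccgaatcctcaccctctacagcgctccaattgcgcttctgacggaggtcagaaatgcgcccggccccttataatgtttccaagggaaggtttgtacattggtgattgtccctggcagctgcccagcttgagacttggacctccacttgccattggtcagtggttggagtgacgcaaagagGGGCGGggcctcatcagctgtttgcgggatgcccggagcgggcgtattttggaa
Bcl2l11: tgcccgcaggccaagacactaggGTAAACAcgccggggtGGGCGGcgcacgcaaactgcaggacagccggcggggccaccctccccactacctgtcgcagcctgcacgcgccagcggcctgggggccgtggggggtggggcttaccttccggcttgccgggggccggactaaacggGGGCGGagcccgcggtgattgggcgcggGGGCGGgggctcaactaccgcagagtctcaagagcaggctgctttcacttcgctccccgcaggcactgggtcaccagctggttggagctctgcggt

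IR was set against Control to ask how irradiated marrow differed at 14 DPI. Over all cells Bcl2l11 measured 58.6 CPM in Control and 40.4 in IR, a ratio of 0.689 (95% interval 0.669 to 0.708). Bcl2 measured 105 and 81.4, a ratio of 0.777 (0.761 to 0.793), and Mcl1 217.5 and 181, a ratio of 0.830 (0.818 to 0.842). Pmaip1 measured 17.9 and 23.1, a ratio of 1.29 (1.24 to 1.35), and Bid 37.2 and 45.8, a ratio of 1.23 (1.19 to 1.27). The anti-apoptotic Bcl2 and Mcl1 and the BH3-only Bcl2l11 were thus lower in IR, and the BH3-only Pmaip1 and Bid higher. Bcl2l1 stood at a ratio of 1.11 (1.06 to 1.17), Bak1 at 1.08 (1.05 to 1.11) and Bcl2a1b at 0.787 (0.664 to 0.932). Summed over Bcl2a1a, Bcl2a1b and Bcl2a1d the ratio was 0.880 (0.768 to 1.01), whose interval held 1, and for Bcl2a1b with strata weighted as in Control it was 0.972. The intervals of Bad (0.968 to 1.03) and Bmf (0.879 to 1.08) held 1, and both ratios turned from below to above 1 with TMM or DESeq2 factors. A ratio counted as past the fold at 1.5 or more, or its inverse or less, with at least 100 UMIs in both libraries together. By that rule 0 of the 10 genes were past it, beside 12.9% of all 17989 genes measured. The median log2 ratio of the 10 was −0.02 beside −0.05 over all genes. It was 0.04 with TMM factors, beside 0.005 over all genes, and 0.04 with DESeq2 factors, beside 0.006.

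Within gates, Pmaip1 was higher in IR than in Control in the Mpo gate by a ratio of 1.61 (1.53 to 1.70). The ratio was 1.63 (1.45 to 1.84) in the Cd79a gate, 1.60 (1.27 to 2.03) in the Retnlg gate, 1.68 (1.13 to 2.44) in the Siglech gate and 1.66 (1.56 to 1.77) in the Cd34 Adgrl4 gate. In the Klf1 gate the ratio was 1.09 (0.831 to 1.44), whose interval held 1, and whether the Klf1 gate differed from the others in this was not tested. Pmaip1 was the 1 gene of 10 past 1.5-fold in the Mpo gate, beside 7.22% of all genes there, and the 1 of 10 in the Cd34 Adgrl4 gate, beside 9.83%. In Cd34 Adgrl4 cells that passed no other gate its ratio was 1.27, no longer past 1.5-fold. In those cells Bid, at 18.9 CPM in Control and 31.4 in IR, and Bcl2l11, at 152.5 and 101, were past it instead. Bid in the Cd79a gate measured 24.01 CPM in Control and 36.2 in IR, a ratio of 1.51 (1.38 to 1.65), and Bcl2a1b there 2.69 and 0.806, a ratio of 0.300 (0.190 to 0.462). Together with Pmaip1 these were 3 of 10 genes past 1.5-fold in the Cd79a gate, 2 higher and 1 lower, beside 8.29%. The ratio of Bcl2a1b was 0.496 with gates on cells thinned to 5000 UMIs and 0.170 as a mean over cells. Summed over Bcl2a1a, Bcl2a1b and Bcl2a1d, the counts of the Cd79a gate were 108, 49 and 41 UMIs in Control, IR and IR+CBD, and the IR over Control ratio was 0.399 (0.278 to 0.564).

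Bcl2l11 was lower in IR in the Klf1 gate, at 32.3 CPM in Control and 18.04 in IR, a ratio of 0.559 (0.510 to 0.613). It was the 1 of 8 genes with enough counts past 1.5-fold there, beside 7.11%. Car1, an erythroid marker, moved with it there, at 3347, 1846 and 2425 CPM for Control, IR and IR+CBD, while Ermap, Rhd and Tfrc were not lower in IR. In the Siglech gate Bcl2l11 measured 106 and 56.8, a ratio of 0.535 (0.367 to 0.759), which with Pmaip1 made 2 of 7, beside 12.8%. Other markers moved within that gate: all 6 neutrophil markers were detected and summed to 4918, 17500.6 and 5203 CPM in Control, IR and IR+CBD, led by S100a9, and of the monocyte markers Ly6c2 went from 653 to 1484 and back to 811. Its own 6 markers summed to 10068.9, 9585 and 11754.6. The part of these other cell types in the ratios of the Siglech gate was not tested. In the Cd79a gate, by contrast, the ratio was 1.02 (0.963 to 1.08), and the difference between these gates was not tested. Bcl2 in the Retnlg gate measured 41.9 and 26.9, a ratio of 0.643 (0.564 to 0.732), which with Pmaip1 made 2 of 8, beside 6.91%. That ratio was not past 1.5-fold without cells that passed another gate, at 0.847, or without cells above the 99th percentile of UMIs, at 0.741. Bcl2 was also lower in IR in the Klf1 gate (0.668, 0.605 to 0.738) and the Cd79a gate (0.747, 0.699 to 0.798). It was higher in the Mpo gate (1.11, 1.08 to 1.14) and the Cd34 Adgrl4 gate (1.11, 1.08 to 1.14). Mcl1 stayed within 0.790 and 1.01 in all 6 gates.

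**Figure D3:**
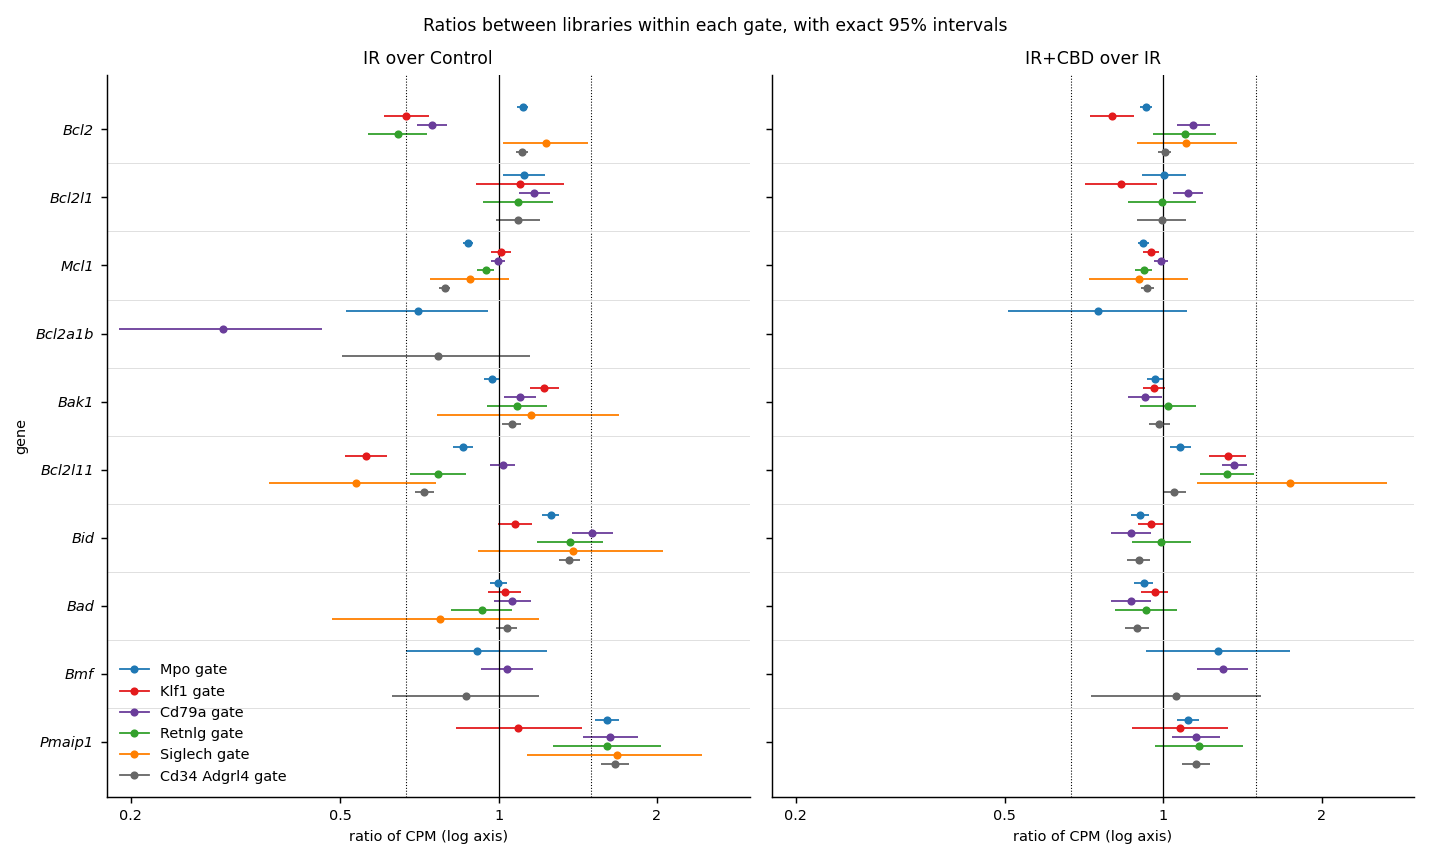
Ratio of CPM (horizontal log axes) of IR over Control and of IR+CBD over IR for each gene (rows) in each gate (colours), with exact 95% intervals as bars, points for genes with at least 100 UMIs in both libraries together, and dotted lines at 1.5 and its inverse. Pmaip1 lies right of 1.5 in 5 of 6 gates for IR over Control, and Bcl2l11 lies right of 1 in 6 of 6 gates for IR+CBD over IR, where the Cd34 Adgrl4 gate turns to 0.789 without cells of other gates.

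IR+CBD was set against IR to ask whether these levels differed with cannabidiol given around irradiation. Over all cells Bcl2l11 measured 40.4 CPM in IR with 48.1 for IR+CBD, a ratio of 1.19 (1.16 to 1.23), and the latter lay between IR and Control, at 58.6. Pmaip1 measured 23.1 and 26.4, a ratio of 1.15 (1.10 to 1.19), farther from the 17.9 of Control than IR was. Bcl2 measured 81.4 and 82.5, a ratio of 1.01 (0.990 to 1.04), whose interval held 1, while Mcl1 measured 181 and 171, a ratio of 0.946 (0.931 to 0.960). None of the 10 genes was past 1.5-fold, a count of 0 beside 3.72% of all 17625 genes measured. The ratios ran from 0.769 for Bcl2a1b to 1.19 for Bcl2l11, with a median log2 ratio of −0.03 beside 0.002 over all genes.

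Within gates Bcl2l11 was higher in IR+CBD than in IR by 1.36 (1.29 to 1.44) in the Cd79a gate, 1.32 (1.22 to 1.44) in the Klf1 gate and 1.32 (1.17 to 1.49) in the Retnlg gate. In the Siglech gate it was higher by 1.74 (1.16 to 2.66), which made 1 of 3 genes with enough counts past 1.5-fold, beside 9.98%, from 46 cells in IR and 79 in IR+CBD. The ratio was smaller in the Mpo gate, at 1.08 (1.03 to 1.13), and in the Cd34 Adgrl4 gate, at 1.05 (0.996 to 1.10), where the interval held 1 and the ratio was 0.789 in cells that passed no other gate. In the Klf1, Retnlg and Siglech gates IR+CBD was therefore nearer to Control than IR was, and in the Cd79a gate it was above both, at 105 CPM beside 75.8 and 77.2. Markers of other cells moved between IR and IR+CBD in the Cd79a gate, where the eosinophil sum went from 55.9 to 206 CPM, the megakaryocyte sum from 5.11 to 40.4 and the neutrophil sum from 7829 to 11379.3. In the Klf1 gate the eosinophil sum went from 15.2 to 65.9 and the basophil and mast cell sum from 56.0 to 18.3. Bmf in the Cd79a gate was higher in IR+CBD by 1.30 (1.16 to 1.45), though the ratio was 0.998 with gates on cells thinned to 5000 UMIs and 0.755 in cells with Vpreb1 and no Ighd. Counts past 1.5-fold were 0 of 10 in the Mpo gate, beside 3.22%, and 0 of 8 in the Klf1 gate, beside 3.35%. They were 0 of 9 in the Cd79a gate, beside 3.81%, 0 of 8 in the Retnlg gate, beside 3.28%, and 0 of 9 in the Cd34 Adgrl4 gate, beside 3.34%. Genes left uncounted for low UMIs were Bcl2a1b and Bmf in the Klf1 and Retnlg gates and Bcl2a1b in the Cd79a and Cd34 Adgrl4 gates. In the Siglech gate they were Bcl2l1, Bcl2a1b and Bmf for both comparisons, and for IR+CBD over IR also Bak1, Bid, Bad and Pmaip1.

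The mix of cells moved with these ratios. The Klf1 gate, lowest in Bcl2, Mcl1, Bcl2l11 and Pmaip1, carried 12.5% of UMIs in Control and 31.3% in IR, and the Cd34 Adgrl4 gate 48.7% and 33.2%. With 6 exclusive gates and the remaining cells weighted as in Control, the IR over Control ratio of Bcl2 was 0.985, of Mcl1 0.901, of Bcl2l11 0.795 and of Pmaip1 1.56, which was then past 1.5-fold. The remaining cells were not split further, so the mix among them was not held as in Control. They were 2470 cells in several gates and 1688 in none in Control, and 2060 and 1168 in IR. Other treatments of the mix moved Bcl2 away from 1: without cells in more than 1 gate its ratio was 0.604 that of Bcl2l11 0.614 and that of Pmaip1 1.205, and as a mean over cells that of Bcl2 was 0.636. All of these but Pmaip1 were past 1.5-fold. For IR+CBD over IR the weighting put Bcl2a1b past it, at 0.637. Cell states within gates differed as well. In the Cd79a gate 25.1%, 23.3% and 14.3% of cells in Control, IR and IR+CBD held Vpreb1, a surrogate light chain gene of B-cell precursors, without Ighd. Among these cells Pmaip1 had an IR over Control ratio of 2.19 and Bid 1.77, beside 1.41 and 1.33 in cells with Ighd and 1.48 and 1.40 in cells with neither. Bcl2a1b had an IR over Control ratio of 0.575 from 8 UMIs in the cells with Vpreb1 and no Ighd, whose interval held 1, 0.253 from 59 UMIs in cells with Ighd and 0.310 from 47 in cells with neither. Bcl2 in the cells with Vpreb1 and no Ighd was higher in IR+CBD than in IR by 1.54 (1.35 to 1.76), beside 1.14 (1.06 to 1.23) over the whole gate. In the Retnlg gate Bcl2 had an IR over Control ratio of 0.590 (0.511 to 0.680) in cells with Cxcr2 and 1.04 (0.738 to 1.47) in cells without it. Bcl2l11 in the Klf1 gate had 0.523 with Gata2 and 0.651 without. Markers of other cells moved over all cells too, though most sums were largely 1 gene. Summed megakaryocyte markers held 81.4, 29.0 and 46.9 CPM, led by Pf4, and basophil and mast cell markers 236, 191 and 183, led by Mcpt8. Eosinophil markers held 128, 191 and 182 CPM, led by Prg2, while of the monocyte markers Ly6c2 held 450, 531 and 428 and F13a1, Ccr2 and Csf1r were lower in IR than in Control. Of the NK cell markers Nkg7 held 285, 274 and 338, Gzma was higher in IR and Klrb1c and Ncr1 lower. T cell markers held 9.59, 7.40 and 6.39, led by Cd3d, endothelial markers 100, 82.4 and 79.6, led by Pecam1, and stromal markers 2.29, 0.870 and 1.78, led by Cxcl12. No marker of these lists was at 0 over all cells. Between Control and IR the eosinophil sum of the Mpo gate went from 207 to 388, the erythroid sum from 253 to 534 in the Cd79a gate and from 155 to 375.5 in the Retnlg gate, and the megakaryocyte sum of the Cd34 Adgrl4 gate from 70.3 to 21.8. The part of any of these markers in the ratios was not tested.

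Other genes of the pathway were counted by lists. For IR over Control 0 of 2 measured anti-apoptotic genes, 0 of 2 effectors, 0 of 2 BH3-only genes and 0 of 9 BCL2-related genes outside the 10 were past 1.5-fold. Beside these and the lists that follow, 12.9% of all 17989 genes measured were past it. Bax, at 135 CPM in Control and 158 in IR, had a ratio of 1.17 (1.16 to 1.19), while Bok had 0.833 (0.740 to 0.938) and Bbc3, which encodes the BH3-only PUMA, 0.900 (0.855 to 0.946). Bcl2l2 had 0.813 (0.732 to 0.904), and the intervals of Bcl2a1d, Bik, Bcl2l14 and Bcl2l15 held 1. Downstream of the family, 0 of 7 apoptosome genes were past 1.5-fold, among them Diablo at 1.235 (1.197 to 1.273) and Htra2 at 1.21 (1.19 to 1.24).

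Of 6 inhibitors of apoptosis 0 were past 1.5-fold, with Birc3 at 0.767 (0.746 to 0.788) and Birc2 at 0.894 (0.866 to 0.924). Of 8 death receptor genes 1 was lower, beside 12.9% of all genes past 1.5-fold in either direction. It was Tnfrsf10b, a TRAIL receptor, at 3.08, 1.64 and 2.21 CPM and a ratio of 0.533 (0.464 to 0.610). Of 12 genes for p53 and its targets 1 was higher and 1 lower, near the 12.9% of all genes past 1.5-fold in either direction. Cdkn1a, the cell cycle inhibitor p21, measured 75.7, 36.6 and 38.6 CPM, a ratio of 0.483 (0.470 to 0.497). Eda2r, a receptor induced by p53, measured 0.436, 0.781 and 0.680, a ratio of 1.79 (1.37 to 2.36). Of its 158 UMIs in IR 102 were in the Klf1 gate, within which the ratio was 1.03 (0.704 to 1.54), an interval that held 1. Over all cells Cdkn1a and Pmaip1, both p53 targets, thus lay on opposite sides of Control in IR. In the gate test Cdkn1a was higher in the Cd34 Adgrl4 gate, at a log2 fold of 2.46, and lower in the Klf1 gate, at −2.61. The share of UMIs went from 48.7% in Control to 33.2% in IR in the Cd34 Adgrl4 gate and from 12.5% to 31.3% in the Klf1 gate. The part of this mix in the Cdkn1a ratio was not tested. Of 7 genes for turnover of MCL1 and BH3-only proteins 0 were past 1.5-fold, with Map3k5 at 0.751 (0.735 to 0.768) and Mapk8 at 0.782 (0.758 to 0.808). Of 15 upstream regulators 2 were higher and 2 lower, beside 12.9% of all genes past 1.5-fold in either direction. Epor, the erythropoietin receptor, had a ratio of 2.70 (2.57 to 2.84) and Gata1, the erythroid transcription factor, 2.05 (1.97 to 2.14). Within the Klf1 gate, whose share of UMIs was larger in IR, these were 1.16 (1.095 to 1.22) and 0.970 (0.927 to 1.015), while in the Mpo, Cd79a, Retnlg and Cd34 Adgrl4 gates they ran from 2.18 to 4.34 and from 1.45 to 3.65. Csf2rb, a shared cytokine receptor chain, was lower, at 0.659 (0.638 to 0.681). For IR+CBD over IR 0 genes of these lists were past 1.5-fold, beside 3.72% of all genes. Tnfrsf10b, at 1.35 (1.16 to 1.56), had the highest ratio among those named.

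Patterns across gates were compared by Pearson's r of log2(CPM + 1) over the 18 sums, which share libraries, depth and composition, so r is a description only. Among 10942 genes with at least 1000 UMIs, Bcl2 was most like Arhgap32 (0.981), Ctif (0.977) and Cacnb2 (0.977), and Mcl1 like Reep3 (0.983), Dennd1c (0.976) and Tbc1d23 (0.969). Bcl2l1 was most like Gm47096 (0.963), Fcrl1 (0.934) and Zhx2 (0.932), and Bmf like Slc12a3 (0.979), Lgr5 (0.968) and Agbl1 (0.966). Bcl2a1b, with 310 UMIs in these sums, was most like Lrrk2 (0.896), Oprm1 (0.860) and Gm20470 (0.849). Among death genes, Bak1 was most like Cycs (0.960), the gene of cytochrome c, Mrpl51 (0.959) and Psmb5 (0.958), and Bcl2l11 like Btbd9 (0.958), Dusp5 (0.957) and Ndfip2 (0.953). Bid was most like H2aj (0.897), Lamp1 (0.873) and Mpc1 (0.873), and Bad like Tmed10 (0.961), Chid1 (0.947) and Trappc5 (0.936). These values depend on the scaling too. With TMM factors Chid1 and Trappc5 fell to 0.724 and 0.769, and Bak1 with Cycs to 0.815. Those of Bid rose, to 0.926, 0.897 and 0.923 in the order given. Pmaip1 was most like Tcirg1 (0.969), Hpse (0.958) and Mtm1 (0.955). Of the 45 pairs among the 10, Bak1 with Bid and Bid with Bad each had r of 0.807, and 0.846 and 0.856 after TMM scaling. After that scaling Mcl1 with Bcl2a1b went from 0.697 to 0.892, the highest of the 45, and Bak1 with Bcl2l11 from −0.396 to −0.861, the lowest. Bcl2l1 with Bmf had 0.710, and 0.655 after TMM scaling, while Mcl1 with Bak1 had −0.880 and −0.174, so that pair depends on the scaling.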

How the data were processed

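The deposited matrices held raw UMI counts per gene and barcode, as counts made by the authors with Cell Ranger (4.0 per the processing notes, 7.0.1 per the matrix headers) on GRCm39, with no normalization. Counts were summed over cells by gate and library with Python 3.11.15, numpy 2.4.6, pandas 2.3.3 and scipy 1.17.1, and plotted with matplotlib 3.10.9. Ratios between libraries carry exact conditional binomial 95% intervals. Gates were tested with edgeR 4.0.16 in R 4.3.3 (filterByExpr, TMM, gate and library as terms, Benjamini-Hochberg over all tested genes), and with DESeq2 1.42.0 as an alternative. Other alternatives changed cell filters, gates, scaling, thresholds and libraries. Ambient RNA and doublets were not removed. Genes named were all 10 members, at most 4 genes of each pathway list past 1.5-fold over all cells, or the 2 with the largest ratio where none was, and the 3 genes most like each member. Some genes that this rule named, and results that need them, are not reported here. Bcl2a1 transcripts came from GENCODE M21 and promoters from RefSeq. The members and lists were chosen with earlier results of these data known.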

Additional observations from a re-analysis of the deposited data

Results flagged for a closer look

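Bcl2 lay on opposite sides of Control between gates, 3 above and 3 below. At the extremes its IR over Control ratio was 1.231 (95% interval 1.018 to 1.481) in the Siglech gate, with 46 cells in IR, and 0.643 (0.564 to 0.732) in the Retnlg gate. Each gate is 1 library per condition, and the difference was not tested. Without cells that passed another gate the ratios were 0.776 in the Siglech gate and 0.847 in the Retnlg gate, both below 1 with intervals that held 1. The other gates kept their sides in such cells, with 1.42 (1.33 to 1.51) in the Mpo gate and 1.21 (1.13 to 1.31) in the Cd34 Adgrl4 gate, beside 0.735 (0.626 to 0.865) in the Klf1 gate and 0.560 (0.498 to 0.629) in the Cd79a gate. In the Siglech gate the ratio was also below 1, at 0.832, with gates on cells thinned to 5000 UMIs.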

How the results depend on the processing

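Of 600 alternative results of the gate test, 535 kept their direction and their side of the threshold, 22 lost the call, 18 gained it and 25 reversed. The reversed log2 folds without TMM factors were, in the Retnlg gate, −1.03 for Bak1, −0.76 for Bcl2l11, −0.67 for Bid, −0.79 for Bad, −1.11 for Bmf and −0.43 for Pmaip1. In the Siglech gate they were 0.32 for Mcl1 and 0.054 for Bak1, and in the Cd34 Adgrl4 gate 0.13 for Bcl2l1 and 0.19 for Mcl1. With all cells of each gate they were, in the Siglech gate, 0.015 for Mcl1, −0.28 for Bcl2a1b and −0.17 for Bid, in the Cd34 Adgrl4 gate 0.15 for Bak1, 0.20 for Bid, 0.05 for Bad and 0.65 for Pmaip1, and in the Cd79a gate −0.087 for Pmaip1. By DESeq2 Mcl1 was −0.024 in the Cd79a gate and Bad −0.061 in the Klf1 gate. With doubled thresholds Bid was −0.18 in the Siglech gate, and without the filter Bmf was −0.075 in the Retnlg gate. Bmf gained a call with all cells of each gate, at 0.60 in the Retnlg gate and −1.13 in the Cd34 Adgrl4 gate, beside 0.10 and −0.49. Leaving out 1 library at a time, Bcl2a1b ran from −6.39 (without Control, a fit to sums of 0 UMIs that sets no bound) to 0.60 (without IR) in the Siglech gate and from −1.24 (without IR) to 0.63 (without Control) in the Cd34 Adgrl4 gate, and Bmf from −0.33 (without Control) to 1.36 (without IR) in the Siglech gate. Members called in the Siglech gate numbered 5 by DESeq2, 5 without the filter, 8 without TMM factors and 5 with all cells of each gate, beside 3. The share of all genes called under each of these settings is not given, so whether the members moved more than other genes cannot be read from these counts. Omission of 1 library at a time gave 8 to 9 members called in the Mpo, Klf1 and Cd79a gates and 7 to 8 in the Retnlg gate. It gave 3 to 4 in the Siglech gate and 6 to 7 in the Cd34 Adgrl4 gate. The share of all genes called in these fits is not given either, so the counts describe the members only.

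For IR over Control over all cells, members past 1.5-fold numbered 2 (Bcl2 and Bcl2l11) without cells in more than 1 gate (15.1% of all genes), 1 (Bcl2) as a mean over cells (14.3%), 1 (Pmaip1) with strata weighted as in Control (8.75%) and 6 at a fold of 1.2 (35.7%), beside 0. For IR+CBD over IR they numbered 1 (Bcl2a1b) with strata weighted as in Control (5.34%) and 1 at a fold of 1.2 (16.8%), beside 0. Of 100 ratios within gates 11 were past 1.5-fold, and 10 of these remained so with a mitochondrial limit of 10%, 11 with 1000 genes per cell, 11 with TMM factors, 7 without cells in more than 1 gate, 8 with doubled thresholds and 8 with gates on cells thinned to 5000 UMIs. Without cells in more than 1 gate, Bcl2a1b in the Cd79a gate (3.51 CPM in Control, 1.10 in IR) and Bcl2l11 in the Siglech gate (68.7 in IR, 106.5 in IR+CBD) left the count because they fell under 100 UMIs. Newly past it were 4 without cells in more than 1 gate, 1 with doubled thresholds, 5 with thinned cells and 7 as a mean over cells. Bcl2 in the Retnlg gate had an IR over Control ratio of 1.041 in cells without Cxcr2. A fold of 1.2 counts more genes by construction. For the other changes the cause was not tested. At this depth ratios under 100 UMIs, not counted, were those of Bcl2a1b and Bmf in the Klf1 and Retnlg gates, for IR+CBD over IR also of Bcl2a1b in the Cd79a and Cd34 Adgrl4 gates, and in the Siglech gate 3 for IR over Control and 7 for IR+CBD over IR.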
